A study of Mus musculus with 12 samples.

Results

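The genes described here encode the 5 NF-kB subunits (Rel, Rela, Relb, Nfkb1 and Nfkb2), 3 proteins of the IkB family (Nfkbia, Nfkbid and Bcl3) and the deubiquitinase Tnfaip3. They were taken by gene symbol, and all 9 were present among the 10073 genes with a deposited expression value. The study sequenced the RNA of naive CD4 T cells sorted into 4 populations, with 1 library per population from each of 3 untreated mice (12 libraries), to relate basal signalling by the T cell receptor (TCR) to gene expression. Every mouse was of the C57/BL6 background and carried Tg(Nr4a1-EGFP)GY139Gsat, in which regulatory sequence of Nr4a1 (Nur77) drives GFP, and Foxp3tm1Flv, a red fluorescent reporter of Foxp3. Cells of spleen and lymph node were sorted as CD4+ and CD44lo with no Foxp3 reporter signal, and without TCR stimulation. Population A was GFPlo and Ly6C+, B was GFPint and Ly6C+, C was GFPint and Ly6C negative, and D was GFPhi and Ly6C negative. The gates for D over C and for B over A each differ by GFP at 1 Ly6C state. The gates for D over A differ in both markers. Names such as A1 stand for the library labelled population A of mouse 1.

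NF-kB is a family of dimeric transcription factors. In resting T cells most dimers are held in the cytoplasm by IkB proteins, and TCR signalling frees them through the IkB kinase. Rel, Rela and Relb carry activation domains, while Nfkb1 and Nfkb2 encode the precursors p105 and p100, which are processed to p50 and p52 and hold back other subunits before processing. Several inhibitors are themselves NF-kB targets and form feedback loops: Nfkbia encodes IkB-alpha, which removes dimers from the nucleus, and Tnfaip3 encodes A20, which edits ubiquitin chains upstream of the kinase. Nfkbid (IkB-NS) and Bcl3 encode nuclear IkB proteins that act on DNA-bound p50 and p52 dimers. By their Entrez identifiers the subunit genes are Rel (19696, chromosome 11), Rela (19697, chromosome 19), Relb (19698, chromosome 7), Nfkb1 (18033, chromosome 3) and Nfkb2 (18034, chromosome 19). The inhibitor genes are Nfkbia (18035, chromosome 12), Nfkbid (243910, chromosome 7), Bcl3 (12051, chromosome 7) and Tnfaip3 (21929, chromosome 10).

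Promoter windows of 6 members held a match to the kB consensus, the 10-base element that NF-kB dimers bind. Those of Rel, Bcl3 and Nfkbia are shown. Each window runs from 250 bases before to 50 bases after a RefSeq transcript start in GRCm38.p6, is written on the strand of the gene, and has the bases of the match in capitals. Rel lay at chr11:23770920-23771219 on the minus strand, with a match beginning at position -92, where the start base is 0. Bcl3 lay at chr7:19822706-19823005 on the minus strand, with a match beginning at position 2. Nfkbia lay at chr12:55492598-55492897 on the minus strand, with a match beginning at position -29.
Rel: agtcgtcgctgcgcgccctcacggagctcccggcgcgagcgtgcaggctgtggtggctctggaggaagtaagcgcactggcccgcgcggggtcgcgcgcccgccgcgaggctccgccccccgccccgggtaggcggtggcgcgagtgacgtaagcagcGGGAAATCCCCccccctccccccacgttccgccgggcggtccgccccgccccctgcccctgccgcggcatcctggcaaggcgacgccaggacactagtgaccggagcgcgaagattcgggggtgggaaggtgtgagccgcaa
Bcl3: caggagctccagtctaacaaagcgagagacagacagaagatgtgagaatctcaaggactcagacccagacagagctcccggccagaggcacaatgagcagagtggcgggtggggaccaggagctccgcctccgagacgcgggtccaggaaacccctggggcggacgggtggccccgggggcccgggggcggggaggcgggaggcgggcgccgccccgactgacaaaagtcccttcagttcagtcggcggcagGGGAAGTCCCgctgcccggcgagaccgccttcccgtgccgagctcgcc
Nfkbia: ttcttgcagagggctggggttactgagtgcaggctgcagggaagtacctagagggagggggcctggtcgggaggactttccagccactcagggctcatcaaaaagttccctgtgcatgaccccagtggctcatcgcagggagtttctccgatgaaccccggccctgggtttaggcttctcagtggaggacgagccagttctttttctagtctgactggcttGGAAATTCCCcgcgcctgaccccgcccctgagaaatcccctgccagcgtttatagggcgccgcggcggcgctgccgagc
Searched on both strands, 8 of the 12 promoter windows found for 7 members held a kB match, and these 8 windows belonged to 6 members, Rel, Nfkb2, Nfkbia, Nfkbid, Bcl3 and Tnfaip3. The window of Rela held none, and no window was found for Relb or Nfkb1. The second and the third Nfkb2 windows overlap and hold 1 match in common, so the 8 windows count that site more than once. The 2 matches in the Rel window overlap, and the match at position -92 fits the consensus on both strands. Over all 32851 windows 4.51% held a kB match, and 5.11% of the 10378 windows of genes with an expression value did. The pattern TGANTCA, wider than the AP-1 consensus, was found in 2 of the 12 windows. It matched as TGAATCA in 1 window of Nfkb2 and as TGACTCA, which meets the consensus, in 1 of Tnfaip3. The same pattern was found in 7.81% of all windows and 4.56% of the windows of genes in the expression data. The kB and TGANTCA matches did not overlap each other.

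Values are RPKM, a read count divided by gene length in kilobases and by library depth in megareads (M reads). Depth was 6.31 to 9.07 M reads per library, and each member was covered by 222 to 3385 reads in each library, so counting error alone gave a median coefficient of variation of 1.87% to 5.58% by member. The CD4 T cell markers summed to 1683 to 1886 RPKM in every library (8 of 8 in the table). Some libraries went against their labels or stood apart. Nr4a1, the gene behind the GFP reporter, was at 36.0, 73.3 and 64.6 RPKM in B1, B2 and B3, against 57.7, 26.1 and 22.9 RPKM in A1, A2 and A3, so mouse 1 ran opposite to mice 2 and 3. It was at 58.7, 64.7 and 67.8 RPKM in the D libraries and at 26.3, 28.3 and 23.4 RPKM in the C libraries. Foxp3 followed the same pattern, at 1.51, 4.00 and 3.88 RPKM in B1, B2 and B3, against 3.76, 1.15 and 1.53 RPKM in A1, A2 and A3. The summed level of 6 regulatory T cell markers, all 6 in the table, was 37.6, 77.4 and 67.1 RPKM in B1, B2 and B3, against 79.0, 34.7 and 33.1 RPKM in A1, A2 and A3. That sum was 69.2 to 80.6 RPKM in the D libraries and 32.6 to 36.5 RPKM in the C libraries. C3 held 955 RPKM of B and plasma cell markers (3 of 12 in the table), against 8.11 to 30.5 RPKM in the other libraries. The CD8 T and NK cell markers (3 of 8 in the table) summed to 32.5 to 33.9 RPKM in D and 41.3 to 47.0 RPKM in C, and to 27.8 to 39.7 RPKM in B and 44.4 to 46.9 RPKM in A. The single myeloid marker in the table, of 10 listed, was at 1.04 to 1.63 RPKM throughout. C3 also had the highest sum of proliferation genes (3 of 6 in the table), 25.8 RPKM against 2.58 to 8.25 RPKM in the other libraries.

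Hemoglobin transcripts split the libraries across mouse numbers. The red blood cell markers (2 of 4 in the table) summed to 21.95 RPKM in D2 and 8.13 RPKM in C2, and to 22.4 RPKM in B1 and 10.04 RPKM in A1, against 133 to 176 RPKM in the other 8 libraries. The low libraries thus carry number 2 in D and C but number 1 in B and A. Whether a number marks the same animal in the Ly6C-negative and the Ly6C+ populations was not tested. D with C and B with A share their low numbers, and comparisons of D with A or C with B by mouse, and the block over 12 libraries, rest on the numbers as labelled. Ly6c1, a gene for the Ly6C antigen, was at 67.0, 66.7 and 59.3 RPKM in C1, C2 and C3, against 50.2, 37.1 and 44.5 RPKM in B1, B2 and B3. It was thus higher in C, the population labelled Ly6C negative, than in B, the one labelled Ly6C+. Ly6c1 was at 44.5, 48.4 and 38.2 RPKM in D1, D2 and D3, and at 63.0, 58.1 and 72.6 RPKM in A1, A2 and A3. D with C and B with A, the pairs that share a Ly6C gate, thus also differed in Ly6c1 without overlap. Whether labels of whole populations are exchanged was not tested. Between B1 and A1 (63.0 RPKM) Ly6c1 ran the same way as in mice 2 and 3, unlike Nr4a1. Whether the labels of A1 and B1 are exchanged was not tested, and an exchange would turn the sign of each B minus A value of mouse 1. Results that touch A1 and B1 are therefore given with and without them. A1 and B1 were singled out by values against their labels. Calls without them for genes of that pattern were thus partly fixed beforehand, and B minus A then rests on A2, A3, B2 and B3. In these bulk samples, fewer cells of a type and less RNA per cell cannot be told apart.

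All 9 members were expressed in every library, and their levels were even across libraries. Nfkbia was the most abundant, between 82.9 and 98.5 RPKM, followed by Nfkb1 between 57.0 and 79.5 RPKM and Rela between 44.7 and 52.0 RPKM. Relb was the lowest, between 11.2 and 15.1 RPKM. The ratio of the highest to the lowest library was 1.16 for Rela and 1.55 for Bcl3, the extremes of the 9 members. Within populations the coefficient of variation was 2.97% for Rela and 15.3% for Tnfaip3, again the extremes.

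**Figure D1:**
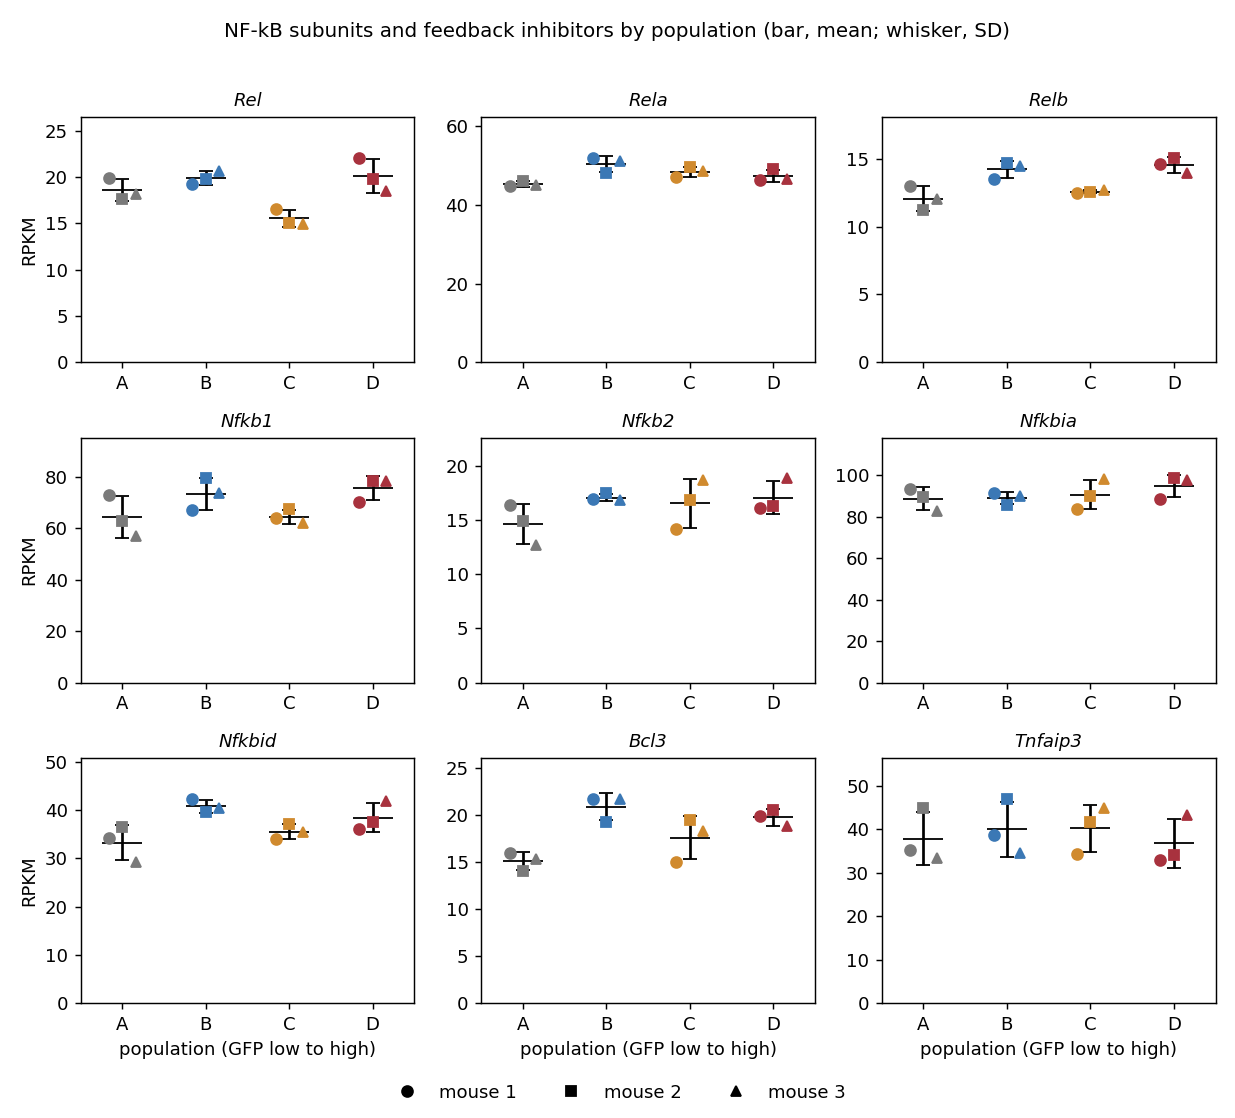
RPKM of the 9 members in each library (points, marked by mouse), with population mean (bar) and SD (whisker, n = 3), populations from GFP low to GFP high. Rel is lowest in C, Bcl3 and Relb are lowest in A, and the populations overlap for Nfkbia and Tnfaip3.

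The order of the population means was not the same for all members. Relb and Nfkb1 had the order A, C, B, D from low to high, so the less bright population of each Ly6C pair lay below both brighter ones. For Relb the step between C and B was wider than their pooled SD, and the A to C and B to D neighbours differed by less than theirs. For Nfkb1 likewise A and C, and B and D, differed by less than their SD. Nfkb2, Nfkbid and Bcl3 had the order A, C, D, B. Rel had the order C, A, B, D, with C apart from A (15.6 against 18.6 RPKM) and D within the SD of B. Rela had the order A, D, C, B. No neighbours in the order of Nfkb2, Nfkbia or Tnfaip3 differed by more than their pooled SD.

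Between D and C, the GFP step within the gate labelled Ly6C negative, Rel, Relb and Nfkb1 were higher in every D library than in any C library. The subunits Rela and Nfkb2 overlapped, as did the inhibitors. Among all genes, 24% did not overlap at this step, in either direction. Rel encodes c-Rel, a subunit found mainly in lymphoid cells. Its values were 22.1, 19.8 and 18.5 RPKM in D1, D2 and D3, against 16.6, 15.1 and 15.0 RPKM in C1, C2 and C3. All D libraries lay above all C libraries, so D was higher in all 3 mice, by 0.40, 0.38 and 0.30 on the log2 scale. The mean was 20.1 ± 1.80 RPKM in D and 15.6 ± 0.91 RPKM in C (SD, n = 3 each), a log2(RPKM + 0.5) difference of 0.36 ± 0.07 (SE). In the limma fit of all 12 libraries with Benjamini-Hochberg adjustment over 10021 genes the adjusted p was 0.106, and in the fit of the 6 D and C libraries alone it was 0.0416 (1.28-fold). That call was lost without C2, D1, D2 or D3, with adjusted p of 0.14, 0.13, 0.144 and 0.0686.

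Nfkb1 was at 70.4, 78.5 and 78.5 RPKM in D1, D2 and D3, against 63.9, 67.5 and 62.2 RPKM in C1, C2 and C3. The lowest D library lay above the highest C library. The log2 difference was 0.23 ± 0.09 with an adjusted p of 0.189 over 12 libraries and 0.0719 over 6. With the mouse as a replicate block the adjusted p was 0.245 over 12 libraries and 0.0499 over 6. Relb, the partner of p52 in the alternative pathway, was at 14.6, 15.1 and 13.9 RPKM in D1, D2 and D3, against 12.5, 12.6 and 12.7 RPKM in C1, C2 and C3. The C libraries were tightly grouped and below all D libraries, but the difference of 0.20 ± 0.06 did not pass, with an adjusted p of 0.139 over 12 libraries and 0.122 over 6.

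The other members gave log2 differences between -0.13 and 0.17 for D minus C. Bcl3 was at 19.8, 20.6 and 18.8 RPKM in D and at 15.0, 19.4 and 18.3 RPKM in C, where C1 was the low library and C2 lay within the D range. The adjusted p for its difference of 0.17 was 0.342. Nfkbid was at 36.0, 37.5 and 41.8 RPKM in D and at 34.0, 37.0 and 35.5 RPKM in C, with D3 the high library, a difference of 0.11 with an adjusted p of 0.493. Nfkbia was at 88.8, 98.5 and 97.6 RPKM in D and at 83.9, 90.0 and 98.1 RPKM in C, a difference of 0.07 with an adjusted p of 0.636. C3 matched the high D libraries for Nfkbia, and also for Nfkb2. Nfkb2 was at 16.1, 16.2 and 18.8 RPKM in D and at 14.1, 16.8 and 18.6 RPKM in C, a difference of 0.05 with an adjusted p of 0.854. Rela was at 46.4, 49.2 and 46.5 RPKM in D and at 47.1, 49.6 and 48.7 RPKM in C, lower in D in all 3 mice but with overlapping ranges, a difference of -0.03 with an adjusted p of 0.754. Tnfaip3, at 33.0, 34.1 and 43.3 RPKM in D against 34.2, 41.6 and 44.8 RPKM in C, differed by -0.13 ± 0.15 with an adjusted p of 0.691. Its D and C ranges overlapped widely.

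Over 12 libraries the test called 0 of 9 members between D and C, where 0.00998% of all tested genes were called. At an unadjusted p under 0.05 it had 3 of 9 members, against 18.1% of genes, and limma-voom on the recovered reads also called 0 of 9. Over the 6 libraries it called 1 of 9, Rel, against 4.8% of genes. Leaving out A1 and B1 gave 2 of 9, Rel with an adjusted p of 0.0111 and Nfkb1 with an adjusted p of 0.0434, against 7.63% of genes. The groups did not overlap for 3 of 9 members, against 24% of all genes. The members' median difference was 0.11, with 7 above 0 and 2 below, against a median of 0.01 over all genes. The 6 regulatory T cell markers were higher in D in the 6-library fit (6 of 6 called, with summed levels of 69.2 to 80.6 RPKM in D and 32.6 to 36.5 RPKM in C), and their part in the Rel difference was not tested. Of 10 genes of the immediate early TCR response, among them Nr4a1, 5 rose and 0 fell in the same fit. D and C were sorted on GFP driven by Nr4a1 sequence, so the Nr4a1 difference was largely fixed by the sort. Rel differed by 0.33 with C3 left out. Without A1, B1 and C3 the limma fit still called Rel (adjusted p = 0.0206) but not Nfkb1 (adjusted p = 0.0819).

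**Figure D2:**
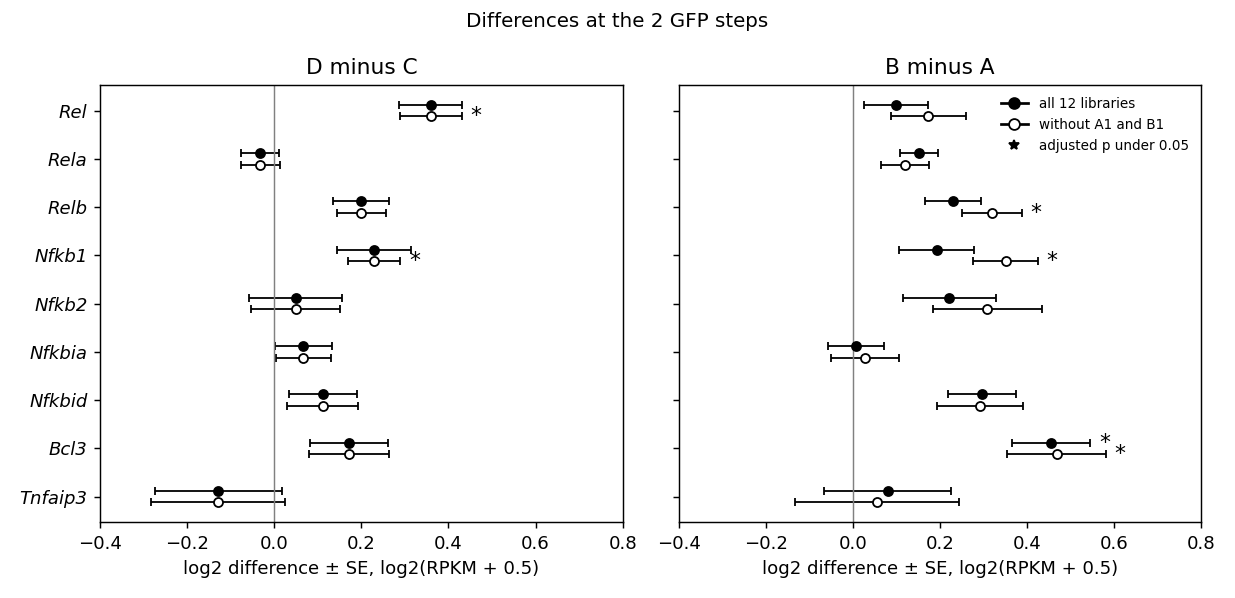
Log2(RPKM + 0.5) differences with SE for the 9 members, D minus C at left and B minus A at right, from all 12 libraries (filled) and without A1 and B1 (open), with an asterisk where the adjusted p is under 0.05. Rel and Nfkb1 pass for D minus C once A1 and B1 are left out, and Bcl3 passes for B minus A in both fits.

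Between B and A, the GFP step within the gate labelled Ly6C+, Bcl3 had the largest difference of the 9 members. It was at 21.7, 19.2 and 21.7 RPKM in B1, B2 and B3, against 15.9, 14.0 and 15.3 RPKM in A1, A2 and A3. The lowest B library lay above the highest A library, so B was higher in all 3 mice, by 0.43, 0.44 and 0.49 on the log2 scale. This included mouse 1, in which Nr4a1 ran the other way (-0.67, against 1.47 and 1.48 in mice 2 and 3). Bcl3 averaged 20.9 ± 1.40 RPKM in B and 15.1 ± 0.97 RPKM in A (SD, n = 3 each), a difference of 0.46 ± 0.09 or 1.37-fold. It rose, with an adjusted p of 0.0415 over 12 libraries, 0.0217 over the 6 B and A libraries and 0.0259 without A1 and B1. With the mouse as a replicate block the adjusted p was 0.0671 over 12 libraries and 0.124 over 6.

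Bcl3 has a transcript GC content of 62.6%, against a median of 49.4% over the genes tested, and B minus A differences moved with GC content. With a trend in GC content and length removed from each library, the Bcl3 difference was 0.23 with an adjusted p of 0.263, and that of Nfkb1, at 0.26, was the larger. The same step gave 0.17 for Nfkbid (0.30 without it), 0.10 for Relb (0.23 without it), 0.03 for Nfkb2 (0.22 without it) and 0.23 for Rel (0.10 without it), and none of these passed. The part of GC content in the Bcl3 difference was not tested beyond this. The call over 12 libraries was also lost without A2, A3, B1, B2, B3, D2 or D3, with adjusted p between 0.0523 and 0.139.

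Nfkbid was at 42.3, 39.6 and 40.5 RPKM in B1, B2 and B3, against 34.2, 36.4 and 29.2 RPKM in A1, A2 and A3. All B libraries lay above all A libraries, and the difference of 0.30 ± 0.08 had an adjusted p of 0.0646. Rela, the most even member, was at 52.0, 48.2 and 51.1 RPKM in B and at 44.7, 46.1 and 45.2 RPKM in A. These values did not overlap either, and the difference of 0.15 had an adjusted p of 0.0791, but with the GC and length trend removed it was -0.02. Nfkb2, which has the same GC content as Rela (59.4%), was at 16.9, 17.4 and 16.8 RPKM in B and at 16.4, 14.9 and 12.7 RPKM in A. Its B libraries lay close together above all A libraries, and the difference was 0.22 with an adjusted p of 0.233.

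Nfkb1 and Relb differed between B and A in mice 2 and 3 more than in mouse 1. Nfkb1 was at 67.1, 79.5 and 73.8 RPKM in B1, B2 and B3, against 73.1, 63.0 and 57.0 RPKM in A1, A2 and A3. B was thus lower in mouse 1, by a log2 difference of -0.12, and higher in mice 2 and 3, by 0.33 and 0.37. With all libraries the difference was 0.19 with an adjusted p of 0.205, and without A1 and B1 it was 0.35 with an adjusted p of 0.0146. Leaving out A1 and B1, which ran the other way, could only raise this difference. Relb was at 13.5, 14.7 and 14.5 RPKM in B1, B2 and B3, against 13.0, 11.2 and 12.0 RPKM in A1, A2 and A3. B1 lay just above A1, and the other B libraries lay further above theirs. The Relb difference was 0.23 with an adjusted p of 0.0718 over all libraries and 0.32 with an adjusted p of 0.0166 without A1 and B1.

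Rel, Nfkbia and Tnfaip3 overlapped between B and A. Rel was at 19.3, 19.8 and 20.7 RPKM in B1, B2 and B3 and at 19.9, 17.6 and 18.2 RPKM in A1, A2 and A3, a difference of 0.10 with an adjusted p of 0.433. Nfkbia was at 91.4, 85.9 and 90.3 RPKM in B and at 93.6, 89.7 and 82.9 RPKM in A, a difference of 0.01 with an adjusted p of 0.957. Tnfaip3, at 38.6, 47.0 and 34.5 RPKM in B against 35.2, 44.9 and 33.5 RPKM in A, differed by 0.08 with an adjusted p of 0.776, and in both populations mouse 2 was the high library.

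The 12-library test called 1 of 9 members between B and A, against 2.23% of all tested genes, and so did the 6-library test, against 3.79% of genes. The fit without A1 and B1 called 3 of 9, Bcl3, Nfkb1 and Relb, all higher, against 10.9% of genes. The groups did not overlap for 5 of 9 members, all higher in B, against 29.2% of all genes. These were Rela, Relb, Nfkb2, Nfkbid and Bcl3, with GC contents of 56.8% to 62.6%, against 42.5% to 52.9% for the other members. The part of GC content in this count was not tested. All 9 members had a difference above 0, with a median of 0.19 against 0.01 over all genes, and with the GC and length trend removed 7 of 9 were above 0, with a median of 0.11.

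Between D and A, populations that differ in both gates, 0 of 9 members were called, against 0.00998% of genes. At an unadjusted p under 0.05 there were 4 of 9 members, against 19.0% of genes, and limma-voom also called 0 of 9. The differences were 0.38 for Bcl3 (adjusted p = 0.151), 0.26 for Relb (adjusted p = 0.151), 0.24 for Nfkb1 (adjusted p = 0.193) and 0.21 for Nfkbid (adjusted p = 0.199). With the GC and length trend removed they were 0.22 for Bcl3, 0.17 for Relb, 0.29 for Nfkb1 and 0.12 for Nfkbid, and none was called. With A1 and B1 left out 3 of 9 were called, Bcl3 at 0.42, Nfkb1 at 0.33 and Relb at 0.31, against 8.84% of genes, and leaving out A1 alone called the same 3. Rela, Relb and Bcl3 were higher in every D library than in any A library, 3 of 9 members against 25.8% of genes.

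C and B share the GFPint gate and differ in the Ly6C gate as labelled. Here Rel, Relb and Nfkbid were lower in every C library than in any B library. That is 3 of 9 members, against 15.1% of genes. Rel differed by -0.35 ± 0.07 with an adjusted p of 0.271, Relb by -0.17 with an adjusted p of 0.295 and Nfkbid by -0.20 with an adjusted p of 0.314. The test called 0 of 9 members, against 0.00998% of genes, with 4 of 9 at an unadjusted p under 0.05 against 13.4% of genes, and limma-voom called 0 of 9. Without A1 and B1 it called 1 of 9, Rel, lower by a log2 difference of -0.37 with an adjusted p of 0.0168, against 7.74% of genes, and without B1 alone Rel had an adjusted p of 0.0376. Nr4a1 was also lower in all C libraries than in B1, B2 or B3, although both gates are named GFPint, and its part in the Rel difference was not tested. The D to C and C to B comparisons share the C libraries, and B and A libraries likewise enter more than 1 comparison.

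Over the 4 populations together, the F test called 0 of 9 members, against 0.00998% of genes, with adjusted p of 0.115 for Rel, 0.118 for Bcl3 and 0.13 for Relb. At an unadjusted p under 0.05 there were 6 of 9 members, against 21.7% of genes, and limma-voom called 0. Without A1 and B1 it called 3 of 9, Rel, Nfkb1 and Relb, against 9.63% of genes. The test of the D minus C step against the B minus A step called 0 of 9 members, against 0% of genes, with 3 members and 15.0% of genes at an unadjusted p under 0.05 and 0 members by limma-voom. Rel was larger at the D to C step by 0.26 (adjusted p = 0.282) and the same difference was -0.29 for Bcl3 (adjusted p = 0.321), so neither member was shown to differ between the steps.

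**Figure D3:**
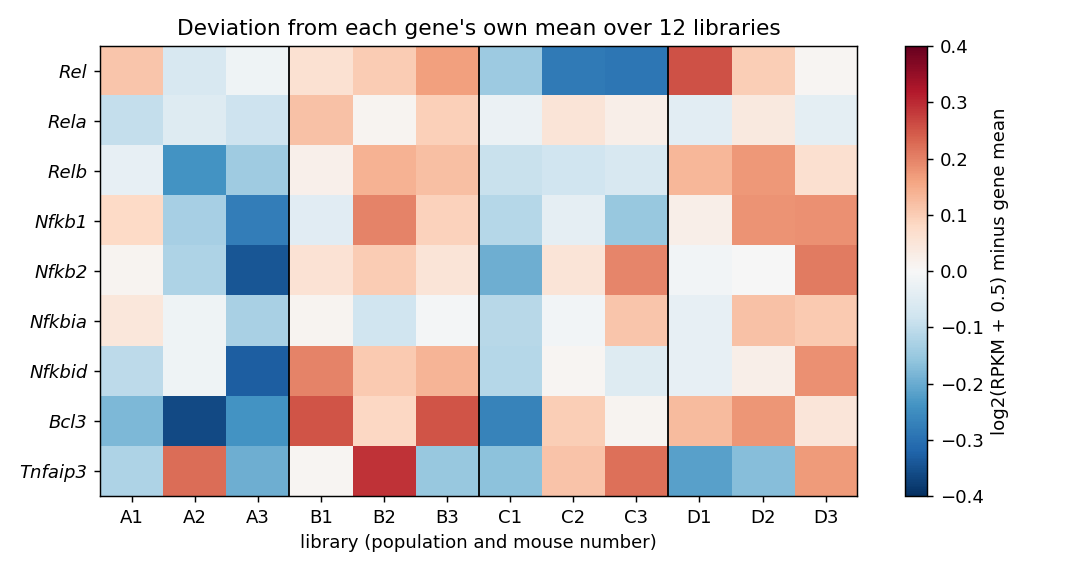
Deviation of log2(RPKM + 0.5) from each gene's own mean over the 12 libraries (colour, log2 units), libraries grouped by population. Rel is low in C1, C2 and C3, Bcl3 is low in A1, A2, A3 and C1, and Tnfaip3 varies within every population.

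Across the 12 libraries most pairs of members had a positive correlation, and the most negative pairs included Tnfaip3. Of the 36 pairs of members, 30 had a Pearson correlation above 0 in log2(RPKM + 0.5), with a median of 0.43, where the median of a member with all tested genes was 0.03. The strongest pairs were Relb with Nfkb1 (r = 0.81), Relb with Bcl3 (r = 0.80) and Rela with Bcl3 (r = 0.78). The most negative were Rel with Tnfaip3 (r = -0.45) and Relb with Tnfaip3 (r = -0.21). The 12 libraries come from 3 mice and share population and library preparation, so these correlations describe the libraries and carry no test.

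The gene whose pattern lay nearest to each member was taken as the highest Pearson correlation over the same 12 libraries, among 8841 genes compared. It was Akt2 for Nfkb1 (r = 0.99), with Traf1 and Pkm next (r = 0.98 each), Pdk2 for Relb (r = 0.96), and Sin3a, a corepressor scaffold, for Rel (r = 0.95). For Bcl3 it was Actr1b (r = 0.96), for Nfkbid Ttll3 (r = 0.96), and for Tnfaip3 Tagap (r = 0.95). Nfkb2 was nearest to Psmb8, an immunoproteasome subunit (r = 0.93), Rela to Atxn7l1 (r = 0.92) and Nfkbia to Srfbp1 (r = 0.88).

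Other genes of the pathway were taken as lists of 63 genes, of which 60 were tested. Between D and C the genes called were Tank and 7 target genes. The 12-library fit by limma called 0 of 60, against 0.00998% of all genes, and limma-voom called 0. That limma fit had 20 of 60 at an unadjusted p under 0.05, against 18.1% of genes. The 6-library fit called 8 of 60 (13.3%), 7 higher and 1 lower, against 4.8% of all genes. Upstream, Tank, an adaptor of the TBK1 and IKK-epsilon kinases, was at 17.0, 17.9 and 18.2 RPKM in D1, D2 and D3, against 14.7, 14.1 and 13.8 RPKM in C1, C2 and C3. All D libraries lay above all C libraries, and Tank rose by 0.30 ± 0.06 with an adjusted p of 0.0295. None of the 9 TRAF, IAP and RIP adaptors, 3 subunits of the linear ubiquitin ligase, 3 other IkB genes or 11 other brakes was called in that fit. The smallest p in each of these lists belonged to Traf1 (0.24, adjusted p = 0.0926), Sharpin (0.10, adjusted p = 0.574), Nfkbiz (-0.15, adjusted p = 0.162) and Tnip2 (0.25, adjusted p = 0.104). Besides Tank, the kinase Map3k14 (NIK) differed by -0.14 with an adjusted p of 0.222.

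Of 23 textbook NF-kB targets tested, of 26 listed, 6 rose and 1 fell between D and C in the 6-library fit. Tnfrsf9, the costimulatory receptor 4-1BB, was at 24.3, 19.1 and 23.2 RPKM in D1, D2 and D3, against 1.59, 1.38 and 1.65 RPKM in C1, C2 and C3, a log2 difference of 3.47 ± 0.11. The costimulatory receptors Tnfrsf4 (OX40) and Tnfrsf18 (GITR) rose by 0.83 and 0.35, and Il2ra, a chain of the interleukin 2 receptor, rose by 1.32. Bcl2a1d and Bcl2a1b, copies of the survival gene A1, rose by 1.42 and 0.92, but their near-identical sequences could have split reads between them, so their separate values are uncertain. Icam1, the adhesion ligand of LFA-1, fell by 0.47, and was at 6.35, 7.58 and 7.36 RPKM in D1, D2 and D3, against 9.11, 11.1 and 9.90 RPKM in C1, C2 and C3. The targets Il2ra and Tnfrsf18 are also among the 6 regulatory T cell markers, whose summed level was higher in D, and the part of those markers in the target differences was not tested.

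**Figure D4:**
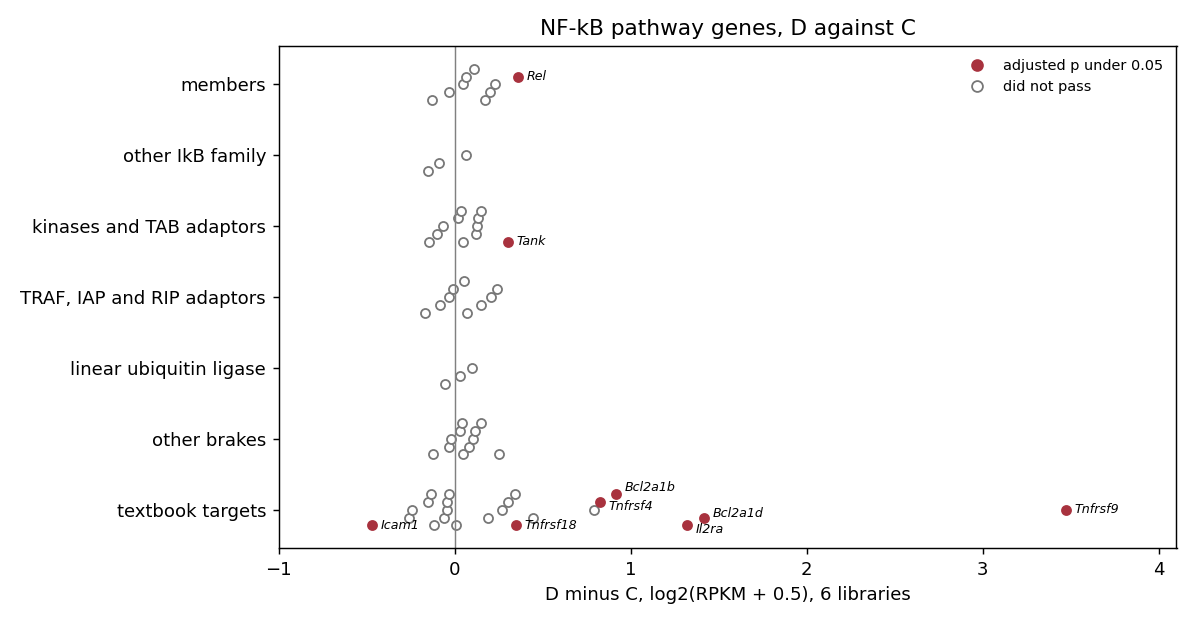
D minus C difference in log2(RPKM + 0.5) for the 9 members and 60 other NF-kB pathway genes by list (points), from the 6 D and C libraries, with filled points where the adjusted p is under 0.05. Tnfrsf9 is the farthest to the right at 3.47, and Tank is the filled point among the kinases and adaptors.

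Between B and A the 12-library fit called 0 of the 60 pathway genes, against 2.23% of genes. It had 17 at an unadjusted p under 0.05, against 23.1% of genes. Limma-voom called 3, with no share over all genes taken. The 6-library fit called 1 of 60 (1.7%), against 3.79% of genes. This was Tax1bp1, an adaptor of A20, which fell by 0.21 with an adjusted p of 0.0353. Over 12 libraries the genes nearest the threshold were the brake Zfand5 (-0.31, adjusted p = 0.0528) and the kinase gene Ikbke (0.23, adjusted p = 0.0548). With A1 and B1 left out the count was 12 of 60 (20.0%), all higher, against 10.9% of genes. These were 8 targets, Tnfrsf9, Il2ra, Tnfrsf4, Bcl2a1b, Tnfrsf1b, Lta, Bcl2a1d and Gadd45b, and upstream Ikbke at 0.29 and Traf1 at 0.40. The other 2 encode A20-binding proteins, Tnip2 at 0.54 and Tnip1 at 0.27. In the same fit 5 of 6 regulatory T cell markers, Il2ra among them, were called higher and 3 of 3 CD8 T and NK cell markers were called lower, and their part in these differences was not tested. Tnfrsf9 was at 1.43, 26.4 and 20.3 RPKM in B1, B2 and B3, against 20.4, 1.42 and 1.93 RPKM in A1, A2 and A3. Mouse 1 was thus reversed for Tnfrsf9, as for Nr4a1, so its call without A1 and B1 was partly fixed by leaving those libraries out. The same held for Il2ra, at 0.29 RPKM in B1 against 2.42 RPKM in A1. It also held for Tnfrsf4, Bcl2a1b, Bcl2a1d, Gadd45b, Lta, Tnfrsf1b, Traf1 and Tnip2, each lower in B1 than in A1. Ikbke and Tnip1 were higher in B1 than in A1. The count of 12 of 60 was thus itself partly fixed by leaving those libraries out. Without A1 and B1 the count of pathway genes called for D against C was 12 of 60 (20.0%), 10 higher and 2 lower, against 7.63% of genes. These 12 were the 8 of the 6-library fit and Tnip2, Lta and Tnfrsf1b, which were higher, and Myc, which was lower.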

How the data were processed

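RNA was measured in 12 libraries, populations A, B, C and D of 3 mice. Per the labels' protocols, sorted cells were lysed, the Quick-RNA MicroPrep kit gave the RNA, and libraries of polyadenylated RNA were made with SMART-seq v4 and NexteraXT. STAR, an aligner, and the builds mm9 and mm10 are named in the submitters' processing notes, with no role. The counter, the annotation and strand use were not given in the sources used here.

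The authors deposited 1 table of RPKM values with gene length and Entrez identifier for 10073 genes. Depths were recovered as those at which RPKM times length came out whole (within 0.1 read), as 100.0% of 9693 to 9982 values examined per library did. Listed genes held 99.07% to 99.71% of reads, and 7 values were 0. A gene entered the test at a mean of 0.5 RPKM or more (10021 genes), with limma 3.58.1 (R 4.3.3, mean-variance trend, no block) on log2(RPKM + 0.5), a scale that understates changes of low genes. Benjamini-Hochberg adjustment was made within each comparison over all tested genes, with a threshold of 0.05. The depth and limma steps were tested on simulated data. Other steps used statmod 1.5.0 in R and, in Python 3.11.15, matplotlib 3.10.9, numpy 2.4.6 and pandas 2.3.3.

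The members, the lists and the alternatives were chosen with earlier results of these data known. Every member is named. From each pathway list the genes with the smallest p were named, up to 4 where they passed and up to 2 where they did not, and others were named after their values were seen. For each member the nearest gene by correlation is given, for Nfkb1 the nearest 3. Beside the lists described, 1 other list of pathway genes is not reported here. Libraries with 1 mouse number come from 1 animal by the labels. Checked on deviations from population means, the correlation of same-numbered libraries averaged -0.072 (1 of 18 pairs over 0.1), against 0.032 for other pairs. Alternatives were pseudocounts of 0.1 and 1, quantile normalization, median rescaling, a filter of 5 RPKM or none, the mouse as a replicate block (in which Nfkb1 for D minus C had an adjusted p of 0.245 over 12 libraries and 0.0499 over 6), no trend, robust moderation, limma-voom on the recovered reads, removal of a GC and length trend, leaving out each library, and leaving out A1 and B1, or A1, B1 and C3. Leaving out A1 and B1 with the block was added after seeing the data. The GENCODE M21 annotation gave GC content, from the longest transcript by symbol, for 9846 tested genes (98.3%). Promoters are from the RefSeq table of GRCm38.p6.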

Additional observations from a re-analysis of the deposited data

Results flagged for a closer look

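For 2 members the steps went opposite ways in every mouse. In 3 of 3 mice Rela was lower in D than in C, with log2 differences of -0.021, -0.011 and -0.064, beside a counting error of 3.07%. In 3 of 3 mice it was higher in B than in A, with 0.214, 0.064 and 0.177. The difference between the steps was -0.18 on the log2(RPKM + 0.5) scale, with an adjusted p of 0.232 by limma. With the GC and length trend removed that difference was 0.003. Tnfaip3 likewise had 3 of 3 mice lower in D than in C (-0.054, -0.283 and -0.05), and 3 of 3 mice higher in B than in A (0.131, 0.065 and 0.044). Its coefficient of variation within populations was 15.3%. The difference between its steps was -0.21 with an adjusted p of 0.638. Neither difference between steps passed the test. An exchange of the A1 and B1 labels, which was not tested, would turn the B minus A sign in mouse 1.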

How the results depend on the processing

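Of 1153 alternative values for single members, 1057 kept their direction and their side of the threshold, 40 newly passed it, 24 no longer passed and 32 changed sign. Called members between D and C over 12 libraries numbered 2 without A1 and B1, 1 also without C3, 2 without A1 and B1 with the replicate block, and 0 to 1 with single libraries left out. Between B and A they numbered 0 with the replicate block, with no trend, and with the GC and length trend removed with or without the block, 3 without A1 and B1, with or without C3 or the block, and 0 to 1 with single libraries left out. Between D and A they numbered 3 without A1 and B1, 3 also without C3, 4 with the block added, and 0 to 3 with single libraries left out. Between C and B they numbered 1, 1, 2 and 0 to 1 in the same order, and in the F test 3, 4, 4 and 0 to 1. In the 6-library fits, D against C gave 0 under quantile normalization or no trend, 2 under the replicate block or voom, and 0 to 1 with single libraries left out, and B against A gave 0 under the block, no trend, and the GC and length trend removed with or without the block, 4 without A1 and B1, and 0 to 1 with single libraries left out. The test of the steps called 0 members in every fit.

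With the GC and length trend removed, with or without the block, the sign changed for Rela in B minus A (-0.02), Nfkbia in B minus A (-0.036), Rela in D minus A (-0.06), Nfkb2 in C minus B (0.005) and Rela in the difference of steps (0.003). Without A1 and B1, Tnfaip3 in C minus B was -0.011, and with C3 also out it was -0.093 and Nfkbia was -0.018. Without A1 and B1 with the block, Tnfaip3 in D minus A was 0.006 and Nfkb2 in C minus B was 0.013. With single libraries left out, Nfkb2 ranged from -0.057 to 0.137 in D minus C and from -0.141 to 0.054 in C minus B. Nfkbia ranged from -0.04 to 0.047 in B minus A and from -0.036 to 0.076 in C minus B. Tnfaip3 ranged from -0.04 to 0.208 in B minus A, from -0.091 to 0.129 in C minus B and from -0.161 to 0.088 in D minus A. None of these values passed the test, and the cause of the changes was not tested. The single libraries that moved a 12-library count were A1 or B1 for D against C (1 each), A2, A3, B1, B2, B3, D2 or D3 for B against A (0 each), A1 for D against A (3), B1 for C against B (1), and B1 or C1 for the F test (1 each). Over 6 libraries they were C2, D1, D2 or D3 for D against C and A2, A3 or B3 for B against A (0 each).

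The adjusted p ranged over the alternatives from 0.00379 to 0.268 for Rel in D minus C over 12 libraries, from 0.0139 to 0.144 over 6, from 0.0114 to 0.351 for Bcl3 in B minus A over 12 and from 0.0091 to 0.546 over 6. Precision rests on 3 mice per population, with a coefficient of variation within populations of 2.97% to 15.3% by member, beside a counting error of 1.87% to 5.58%.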
